A study of Mus musculus with 2 samples.

Results

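Tfcp2l1, Tbx3, Prdm14 and Gbx2 encode transcription factors of the naive pluripotent state, and they were taken by name as 4 of the 21460 protein-coding genes that could be placed. NANOG sites at them were read from ChIP-seq (sequencing of DNA precipitated with an antibody from crosslinked chromatin) of E14TG2a.4, an established male embryonic stem cell line from strain 129/Ola mice, given as embryonic with an age of 3.5 days. The study had 1 group of 2 biological replicates with 1 technical replicate each, an antibody to NANOG and no treatment or second condition, so nothing was compared between conditions and no test between groups could be run. A NANOG summit, the position of a peak's highest signal, was assigned to a gene when it lay in the gene body or within 100 kb of the transcription start site (TSS). By this rule 20 of the 15891 summits of the authors' optimal set, the peaks kept by the irreproducible discovery rate (IDR) procedure, belonged to the 4 genes. The deposited files hold peaks and no expression values, so the naive state of the culture was not checked here.

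Naive embryonic stem cells are held in self-renewal by a network in which NANOG, OCT4, SOX2 and ESRRB act beside factors that answer to outside signals, and leukaemia inhibitory factor (LIF) acts in it through STAT3. TFCP2L1, a member of the TFCP2 and grainyhead-like family, and GBX2, a homeodomain protein, are known as targets of STAT3 that can sustain self-renewal. TBX3, a T-box factor, is linked in mouse cells to signalling through PI3K and AKT and is also known from limb and heart development. PRDM14, a PR-domain zinc-finger protein, is known for repressing FGF signalling and DNA methyltransferase genes and for its part in germ-cell specification. NANOG itself binds DNA through a homeodomain, and its sites in these cells are often shared with SOX2 and OCT4.

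The 201 bases centred on the midpoints of the mm9 peaks at the strongest NANOG site of Prdm14, Tbx3 and Gbx2, at the intronic site of Tfcp2l1, and at the promoter-proximal site of Prdm14 are shown because the values below turn on these sites. They are the plus strand of the mm9 reference, with capitals for exact matches to the motifs searched. The upstream site of Tfcp2l1 is not shown, because its mm10 summit lay 394 bp further upstream than the mm9 midpoint when both were measured from the TSS. Its 201 bases held no match to the motifs searched. Each site shown holds a match, so these sites do not show how often a match occurs. For the sites shown, the summit lay between 22 and 140 bp from the midpoint, measured from the TSS or, for Gbx2, from the 3′ end of the gene. Differences in the annotated ends of a gene between builds enter these distances, and the summits of the Tfcp2l1 and Tbx3 sites, at 133 and 140 bp, may lie outside the bases shown.

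Prdm14, 42.1 kb downstream, chr1:13075025-13075225: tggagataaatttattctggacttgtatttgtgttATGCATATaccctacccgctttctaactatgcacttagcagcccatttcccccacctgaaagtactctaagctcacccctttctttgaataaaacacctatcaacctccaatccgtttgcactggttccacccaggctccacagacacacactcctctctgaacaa
Prdm14, 1.01 kb upstream, chr1:13118153-13118353: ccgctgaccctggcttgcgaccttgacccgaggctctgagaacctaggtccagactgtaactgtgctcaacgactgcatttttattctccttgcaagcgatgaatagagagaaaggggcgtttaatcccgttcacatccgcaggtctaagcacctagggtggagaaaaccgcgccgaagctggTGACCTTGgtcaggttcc
Tfcp2l1, 14.7 kb into the gene, chr1:120539124-120539324: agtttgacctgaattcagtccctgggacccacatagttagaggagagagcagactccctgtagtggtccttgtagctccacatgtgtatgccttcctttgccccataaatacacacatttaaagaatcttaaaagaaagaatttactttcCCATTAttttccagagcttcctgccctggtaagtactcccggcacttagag
Tbx3, 9.46 kb into the gene, chr5:120130040-120130240: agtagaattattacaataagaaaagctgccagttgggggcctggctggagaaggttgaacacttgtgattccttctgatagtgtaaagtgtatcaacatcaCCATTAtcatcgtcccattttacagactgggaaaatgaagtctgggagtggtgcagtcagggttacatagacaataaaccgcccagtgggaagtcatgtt
Gbx2, 62.4 kb downstream, chr1:91767337-91767537: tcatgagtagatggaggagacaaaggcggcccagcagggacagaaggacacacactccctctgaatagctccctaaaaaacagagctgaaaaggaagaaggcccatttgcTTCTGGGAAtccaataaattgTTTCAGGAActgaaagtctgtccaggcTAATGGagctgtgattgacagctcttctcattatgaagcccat

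In the Prdm14 site the capitals mark ATGCATAT, a form of the octamer bound by OCT4, and in its promoter-proximal site TGACCTTG, the reverse complement of the ESRRB motif CAAGGTCA. In the Tfcp2l1 and Tbx3 sites they mark CCATTA, the reverse complement of the homeodomain motif TAATGG. In the Gbx2 site they mark a pair of matches to the loose STAT pattern, TTCTGGGAA and TTTCAGGAA on the minus strand, and TAATGG on the plus strand.

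All 4 genes had at least 1 optimal summit, which 67.2% of protein-coding genes had, and all 4 had a summit of the stricter conservative set, which 51.4% of genes had. Tbx3 had 9 optimal summits, Tfcp2l1 and Gbx2 had 4 each and Prdm14 had 3. Among protein-coding genes, 0.629% had at least 9, 13.2% at least 4 and 24.1% at least 3, and the median gene had 1. The count of Tbx3 was thus rare among genes, whereas that of Prdm14 was reached by about 1 in 4. The counts moved with the replicate used: the 15891 highest regions of replicate 2 alone gave 3 at Tbx3, 2 at Tfcp2l1 and 6 at Prdm14, and those of replicate 1 alone gave 2 at Gbx2. They also moved with the window, since only 4 of the 9 Tbx3 summits lay in the gene or within 50 kb. By the highest signal in the window the order differed: Prdm14 reached 307.1, Tfcp2l1 256.5, Tbx3 136.3 and Gbx2 98.6. The signal is the authors' own statistic per peak, whose scale is not stated, and it was used to rank peaks within a list. A signal as high was found in the windows of 1.64% of genes for Prdm14, 3.01% for Tfcp2l1, 11.1% for Tbx3 and 18.1% for Gbx2.

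**Figure D1:**
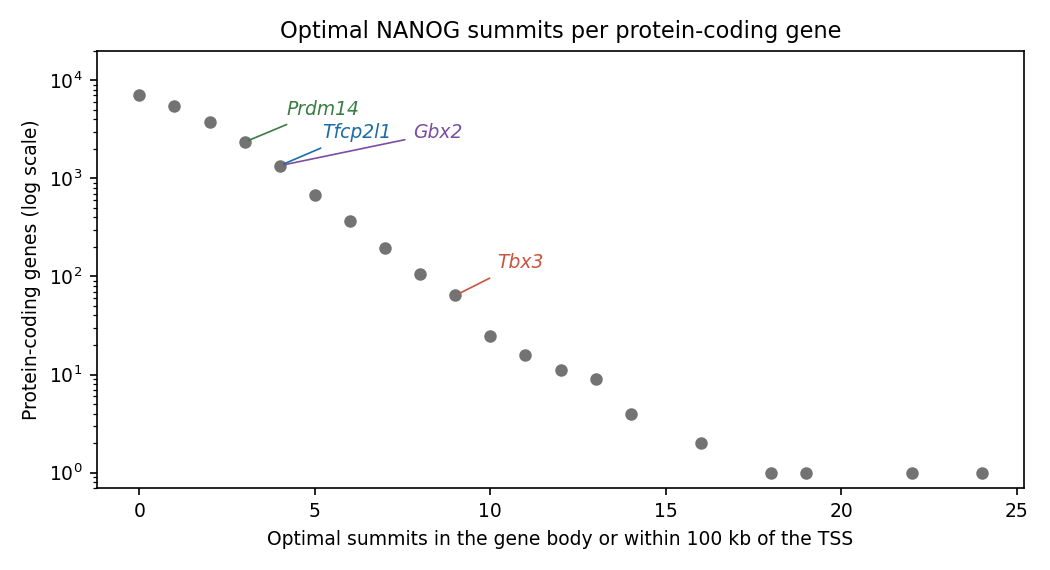
Number of protein-coding genes (log scale) with each number of optimal NANOG summits in the gene body or within 100 kb of the TSS; each point is 1 number of summits. Tbx3, with 9 summits, stands in the tail, and 1347 genes had 4 summits as Tfcp2l1 and Gbx2 did.

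In 3 of the 4 genes most of the summed signal came from 1 site. The highest summit held 78.2% of the summed signal at Prdm14, 63.0% at Gbx2 and 55.2% at Tfcp2l1, against 28.2% at Tbx3, where the signal was spread over several sites. Such a share falls as summits are added, and Prdm14, Gbx2 and Tfcp2l1 had 3, 4 and 4 summits against 9 at Tbx3. It was not computed over all genes. Of the 20 summits, 19 (95.0%) lay more than 1 kb from the TSS of their gene, and the exception was the summit 0.987 kb upstream of Prdm14. The windows reach 100 kb to each side of the TSS, so a high share is largely set by the rule. The same share was not counted over all genes, so it is no trait of these 4. The summits farthest from the TSS inside the windows were 60.0 kb downstream of the Tfcp2l1 TSS with a signal of 23.5, 85.9 kb upstream of Tbx3 with 33.9, 52.5 kb downstream of Prdm14 with 38.0 and 60.4 kb downstream of Gbx2 with 98.6. The nearest summits outside were 102 kb downstream of the Tfcp2l1 TSS with a signal of 36.8, 198 kb upstream of Tbx3 with 24.0, 111 kb downstream of Prdm14 with 38.0 and 129 kb upstream of Gbx2 with 34.1.

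**Figure D2:**
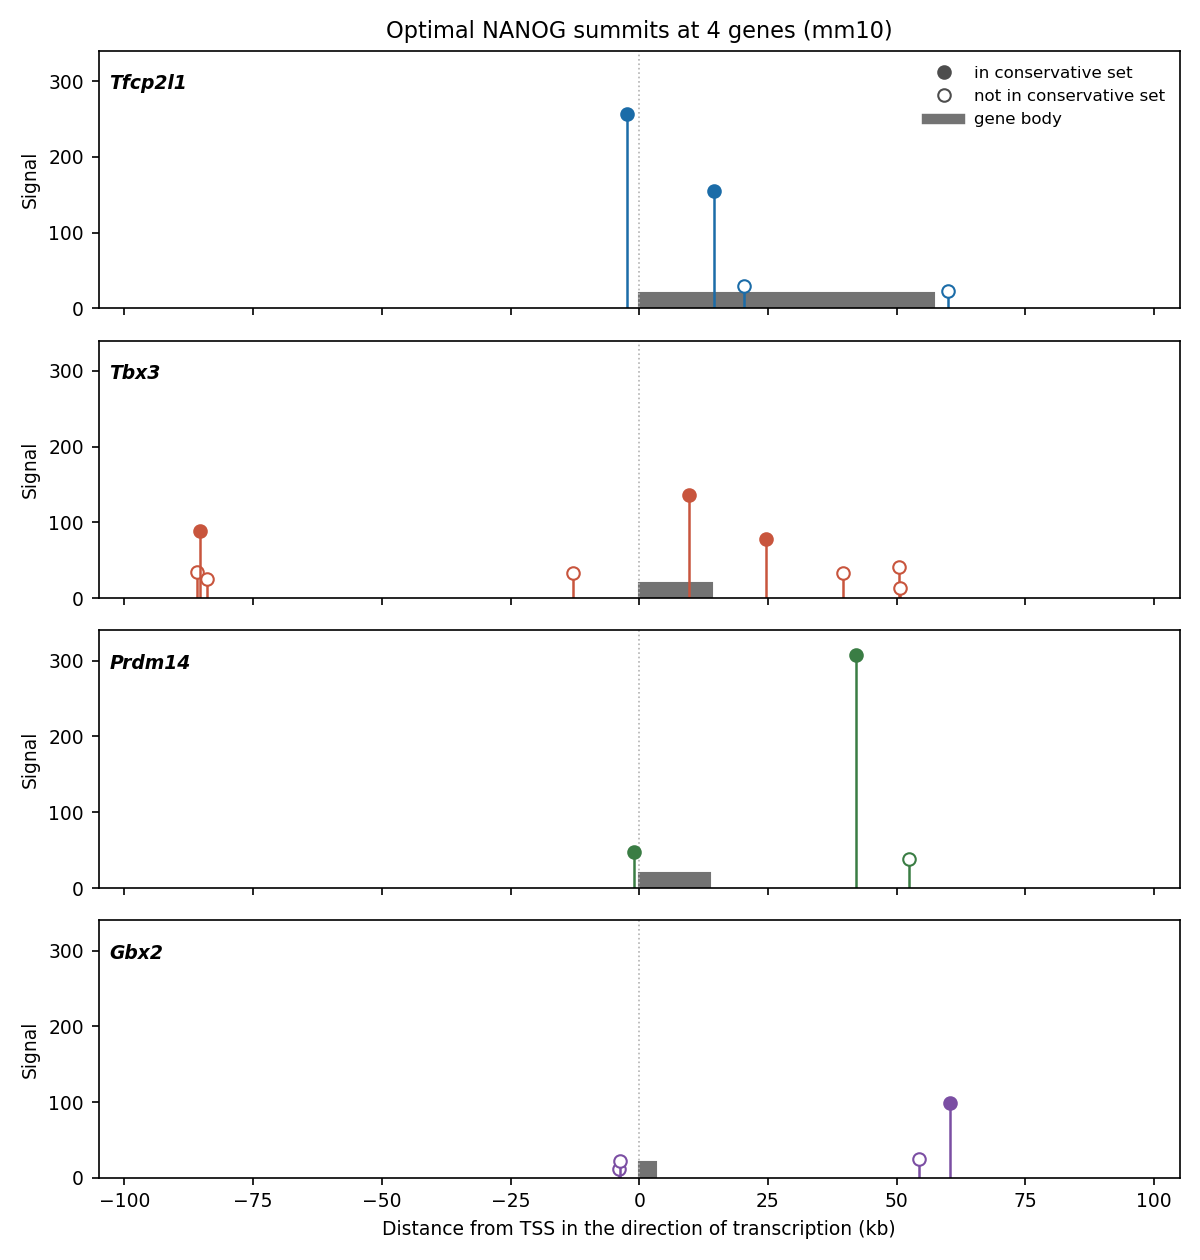
Signal of each optimal NANOG summit against its distance from the TSS in kb, downstream positive, at the 4 genes on mm10; filled points lie in the conservative set, open points do not, and the grey bar is the gene body. The tallest summits of Tfcp2l1 and Prdm14 reached 256.5 and 307.1, while Tbx3 had summits on both sides of the gene.

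Tfcp2l1 (chr1:118627923-118685168 on mm10, plus strand, 57.2 kb) had its strongest NANOG summit just upstream of the gene and a second strong one inside it. The upstream summit, in the region chr1:118625383-118625820, lay 2.28 kb before the TSS outside any annotated gene. Its signal of 256.5 ranked 305 in the optimal set, and it ranked 506 in replicate 1 and 138 in replicate 2 by their relaxed lists. The relaxed lists hold 300000 regions each, peaks and background together, so these ranks are near the top of both. In the replicates' own lists its signal was 155.8 in replicate 1 and 100.4 in replicate 2, and signals of different lists are on scales that were not compared. The intragenic summit, in chr1:118642358-118642620 and 14.6 kb from the TSS, had a signal of 155.2 and ranked 997 in the optimal set, 1154 in replicate 1, with a signal of 109.8, and 906 in replicate 2, with 41.3. Both summits were in the conservative set.

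The other 2 Tfcp2l1 summits were weak. A summit 20.4 kb from the TSS inside the gene had a signal of 29.4 and ranked 11143, with rank 9596 in replicate 1 and 50806 in replicate 2. A summit 60.0 kb from the TSS, past the 3′ end of the gene, had a signal of 23.5 and ranked 13468, with rank 13645 in replicate 1 and no region within 100 bp in replicate 2. Neither was in the conservative set, and both stood higher in replicate 1 than in replicate 2. Replicate 1 had 1 more summit among its 15891 highest, 18.0 kb into the gene at rank 15302, that was not in the optimal set. No other protein-coding TSS lay within 100 kb of the Tfcp2l1 TSS.

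On mm9, where the gene is annotated as Tcfcp2l1 (chr1:120524522-120581744), 3 peaks of the series-level list lay in the window. The deposited mm9 lists give each peak an enrichment against a reference that is not named. The peak 1.88 kb upstream, by its midpoint, had an enrichment of 25.51 in the series-level list, 50.74 in replicate 1 and 31.04 in replicate 2. The intronic peak 14.7 kb from the TSS had 21.98 in the series-level list, 43.26 in replicate 1 and 17.19 in replicate 2. The peak at 60.0 kb had 4.87 in the series-level list and 9.11 in replicate 1, where its q-value was 0.087, and replicate 2 had no peak there.

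Tbx3 (chr5:119670534-119684724 on mm10, plus strand, 14.2 kb) had a spread-out set of 9 summits, 4 upstream, 1 in the gene and 4 downstream. The strongest, in chr5:119679989-119680291, lay in the gene 9.6 kb from the TSS. It had a signal of 136.3 and ranked 1288 in the optimal set, 1456 in replicate 1, with a signal of 97.9, and 1062 in replicate 2, with 38.1. The second, 85.3 kb upstream, had a signal of 88.1 and ranked 2727 in the optimal set, 2694 in replicate 1, with 68.4, and 2019 in replicate 2, with 26.1. The third, 24.6 kb from the TSS and downstream of the gene, had a signal of 78.3 and ranked 3243 in the optimal set, 3748 in replicate 1, with 55.1, and 2867 in replicate 2, with 20.8. These 3 were the Tbx3 summits in the conservative set, and their ranks were close in both replicates.

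The distal upstream summit had weaker ones beside it, so that 3 of the 9 summits fell within 2 kb of each other. Summits 85.9 and 83.9 kb upstream, at 0.577 and 1.39 kb from it, had signals of 33.9 and 24.9 and ranked 9599 and 12870. The first ranked 8476 in replicate 1 and 107072 in replicate 2, and the second ranked 16142 in replicate 1 and 38379 in replicate 2. These 3 summits lay outside annotated genes. Nearer to the gene, a summit 12.9 kb upstream, inside the annotated noncoding RNA genes Gm16064 and Tbx3os1, had a signal of 33.8 and ranked 9633, with rank 9476 in replicate 1 and 52146 in replicate 2. The downstream side also held weak summits with low ranks in replicate 2. A summit at 39.6 kb had a signal of 33.1 and ranked 9837, with rank 8380 in replicate 1 and 189552 in replicate 2. A summit at 50.4 kb had a signal of 41.3 and ranked 7684, with rank 7777 in replicate 1 and 32860 in replicate 2.

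The last Tbx3 summit, at 50.6 kb, lay 0.204 kb from that at 50.4 kb and had a signal of 13.4 at rank 15445. It was the 1 summit of the 20 with no region within 100 bp in either replicate, and in the pooled list its rank was 40688. All 6 summits outside the conservative set thus stood lower in replicate 2 than in replicate 1 or had no region in either. Replicate 1 had 2 further summits among its 15891 highest that were not in the optimal set, 56.0 kb upstream and 41.6 kb downstream of the TSS. No other protein-coding TSS lay within 100 kb of the Tbx3 TSS.

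On mm9 (Tbx3 at chr5:120120678-120134733), 6 series-level peaks lay in the window. The intronic peak 9.46 kb from the TSS had an enrichment of 19.97, with 38.71 in replicate 1 and 15.28 in replicate 2. The peak 85.7 kb upstream had 13.26, with 26.02 in replicate 1 and 10.51 in replicate 2, and that 24.5 kb downstream of the TSS had 10.74, with 19.84 in replicate 1 and 9.07 in replicate 2. The other 3 peaks, 84.2 and 13.1 kb upstream and 50.4 kb downstream of the TSS, had enrichments of 4.87, 7.22 and 6.71 and no peak in the mm9 list of replicate 2. The 3 peaks found in both replicates were the ones at the 3 conservative mm10 summits.

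Prdm14 (chr1:13113428-13127163 on mm10, minus strand, 13.7 kb) had the highest-ranked summit of the 4 genes. It lay in chr1:13084893-13085318, 42.1 kb downstream of the TSS and outside any annotated gene, with a signal of 307.1 and rank 169, within the top 1.06% of the optimal set. It ranked 194 in replicate 1, with a signal of 209.7, and 166 in replicate 2, with 94.4, so its rank was nearly the same in both replicates. The weakest of its 3 summits, 52.5 kb downstream of the TSS, had a signal of 38.0 and ranked 8507, with rank 7678 in replicate 1 and 30215 in replicate 2. It was not in the conservative set.

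Near its own start Prdm14 had its second summit by signal. This promoter-proximal summit, 0.987 kb upstream of the TSS, had a signal of 47.6 and ranked 6447. It ranked 7820 in replicate 1, with a signal of 31.8, and 4608 in replicate 2, with 15.0, and was in the conservative set. Replicate 2 had 4 summits among its 15891 highest in the Prdm14 window that were not in the optimal set, at ranks from 7557 to 14491, and replicate 1 had 1, at rank 11779. The TSS of no other protein-coding gene lay in the window.

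On mm9 (Prdm14 at chr1:13103538-13117244), 5 series-level peaks lay in the window. The peak 42.1 kb downstream had an enrichment of 32.18 in the series-level list, 65.38 in replicate 1 and 34.44 in replicate 2, the highest of the 16 series-level peaks of the 4 genes in each of the 3 lists. The peak 1.01 kb upstream of the TSS had 8.05 in the series-level list and 16.26 in replicate 1 and no peak in replicate 2, although the mm10 list of replicate 2 placed the summit there at rank 4608. The peak 52.4 kb downstream had 5.54, with 11.06 in replicate 1 and 7.64 in replicate 2. The remaining 2 peaks had no optimal summit. The first, in an intron of Ncoa2 19.2 kb upstream of the Prdm14 TSS, had an enrichment of 4.2 and a best rank of 24488 in the pooled mm10 list. The second, 67.2 kb downstream, had 6.04, with peaks in both replicates, and a best pooled mm10 rank of 64031.

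Gbx2 (chr1:89927962-89931176 on mm10, minus strand, 3.21 kb) had its only conservative summit inside a neighbouring gene. That summit, in chr1:89870712-89870899, lay 60.4 kb downstream of the Gbx2 TSS within Agap1. It had a signal of 98.6 and ranked 2262 in the optimal set, 2289 in replicate 1, with a signal of 75.4, and 2143 in replicate 2, with 25.2. Another summit in Agap1, 54.4 kb downstream, had a signal of 24.3 and ranked 13084, with rank 17813 in replicate 1 and 114485 in replicate 2. The Gbx2 TSS was the nearest protein-coding TSS to both.

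The summits nearest to Gbx2 were the weakest. They lay 3.68 and 3.88 kb upstream of its TSS, 0.205 kb apart, with signals of 22.0 and 11.7 at ranks 14044 and 15548. The first ranked 4690 in replicate 2 and 106304 in replicate 1, and the second ranked 102121 in replicate 1 and had no region within 100 bp in replicate 2. The first was the 1 summit of the 20 that stood among the 15891 highest of replicate 2 and not of replicate 1. The nearest protein-coding TSS to both was that of LOC102637806, at 2.78 and 2.98 kb, a gene whose TSS lay 0.899 kb upstream of that of Gbx2. The TSS of Asb18 also fell in the window, 83.5 kb upstream of that of Gbx2.

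The annotated 5′ end of Gbx2 differed between the builds. On mm9 (chr1:91824537-91829865) the gene was 5.33 kb long, against 3.21 kb on mm10. Measured from the 3′ end of the gene, the summits 3.68 and 3.88 kb upstream on mm10 lay 1.56 and 1.77 kb upstream of the mm9 5′ end. Of the 2 series-level mm9 peaks, that in the intron of Agap1, 62.4 kb downstream of the mm9 TSS, had an enrichment of 12.75, with 24.72 in replicate 1 and 16.72 in replicate 2. It did not match the mm10 summit at 60.4 kb when both were measured from the TSS and did when both were measured from the 3′ end. The other, in an intron of Asb18 69.2 kb upstream, had 5.2 in the series-level list and 10.08 in replicate 1 and no peak in replicate 2 and no optimal summit.

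Across the 4 genes, 8 of the 20 optimal summits (40.0%) were in the conservative set, against 56.7% of all optimal summits. The same 8 were those among the 15891 highest of both replicates, against 46.2% of all optimal summits. A region of both relaxed lists lay within 100 bp of 17 of the 20 (85.0%), against 73.1% of all. Of the 20, 15 (75.0%) were among the highest of replicate 1 and 9 (45.0%) among the highest of replicate 2, against 83.1% and 50.5% of all. These shares lay below those of all optimal summits except for support in both relaxed lists. With 20 summits, a single summit moves such a share by several percentage points. Tbx3 alone gave 9 of the 20, with 3 in the conservative set. The differences were not tested and are not read as a trait of these genes. The optimal set was made from both replicates, so their support is in part built in.

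The conservative summits and the others were separate in signal. The 8 had signals from 47.6 to 307.1 with ranks from 169 to 6447, and the other 12 had signals from 11.7 to 41.3 with ranks from 7684 to 15548. In replicate 2 the 8 ranked between 138 and 4608, and the 9 of the other 12 that had a region there ranked between 4690 and 189552. In replicate 1 the 8 ranked between 194 and 7820, and the 11 others with a region ranked between 7678 and 106304. Both sets are the authors' own, and a selection on reproducibility favours high ranks by design. All 12 others had the same region width of 364 bp, which 78.0% of all optimal regions had and which 1 of the 8 had.

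**Figure D3:**
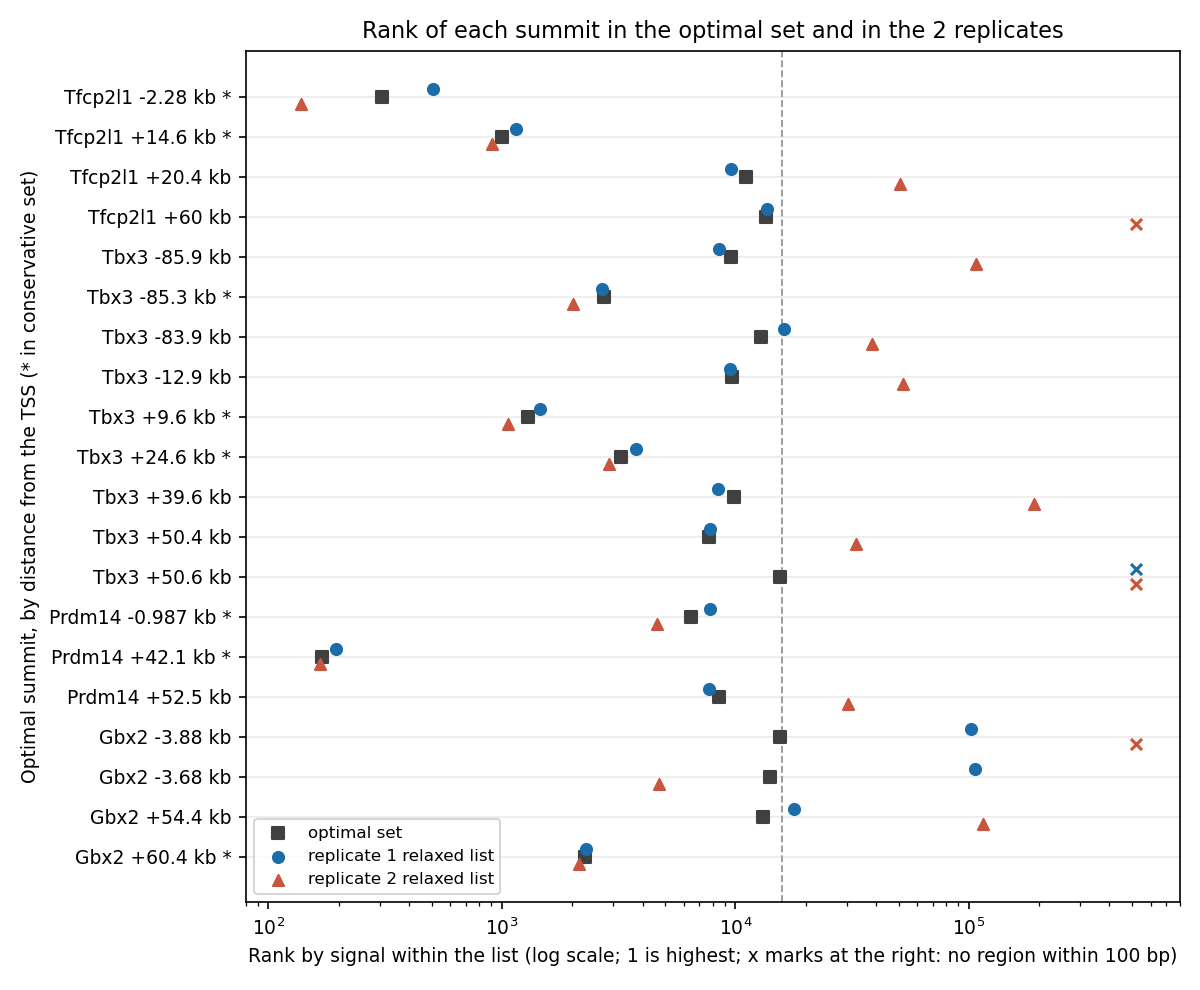
Rank by signal (log scale, 1 is highest) of the 20 optimal summits in the optimal set (squares) and of the best region within 100 bp in the relaxed lists of replicate 1 (circles) and replicate 2 (triangles); crosses mark summits with no such region, asterisks mark the conservative set, and the dashed line is at 15891. The 8 conservative summits have all 3 marks left of the line, and for most of the others the triangle lies right of it.

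The order of the genes by their best summit was the same in the optimal set and in replicate 1, where Prdm14 was followed by Tfcp2l1, Tbx3 and Gbx2. In replicate 2, Tfcp2l1 ranked above Prdm14, at 138 against 166. By mm9 enrichment of the strongest peak the order was again Prdm14, Tfcp2l1, Tbx3 and Gbx2 in the series-level list and in replicate 1. In the mm9 list of replicate 2, Gbx2 stood above Tbx3, at 16.72 against 15.28. The order of Prdm14 and Tfcp2l1, and that of Tbx3 and Gbx2, thus changed between replicates in 1 of the 2 builds each, whereas Prdm14 and Tfcp2l1 ranked above Tbx3 and Gbx2 in each of these lists.

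On mm9, 14 of the 20 optimal summits (70.0%) matched a series-level peak. Over the genes that could be placed on both builds, 64.4% of the 33295 pairs of an optimal summit and a gene did. Of the 16 series-level mm9 peaks of the 4 genes, all 16 overlapped a peak of replicate 1 and 9 a peak of replicate 2. In the list of replicate 1, 4 of those peaks had a q-value above 0.05, and in that of replicate 2 none did. The mm9 lists held 13341 peaks at the series level, 22082 in replicate 1 and only 6618 in replicate 2. These overlaps and q-values were not counted over all series-level peaks, so they show nothing particular to the 4 genes. The peaks without a replicate 2 peak had series-level enrichments of at most 8.05, and those with one had at least 5.54.

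**Figure D4:**
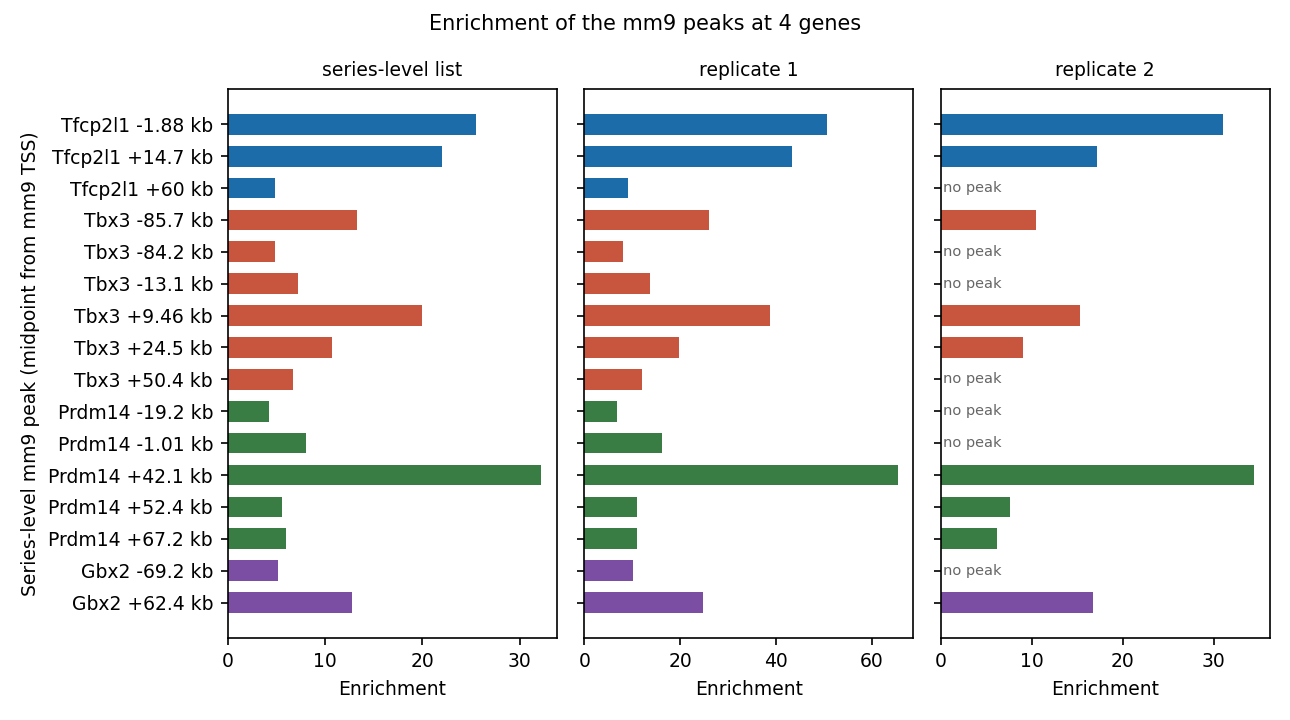
Enrichment of the 16 series-level mm9 peaks of the 4 genes in the series-level list, replicate 1 and replicate 2, each panel with its own scale; rows give the distance of the peak's midpoint from the mm9 TSS, downstream positive. The peak 42.1 kb downstream of Prdm14 is the highest in each panel, and 7 of the 16 peaks have none in replicate 2.

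Other genes of the naive network spanned the range of the 4, with highest signals from 21.4 to 322.6. Of 24 such genes, all 24 had an optimal summit in the window and 21 a conservative one, against 67.2% and 51.4% of all protein-coding genes. The median was 4 summits, and 19 had at least 3, against 24.1% of all genes. The highest signals were those of Tet2, a methylcytosine dioxygenase gene, at 322.6, Pou5f1, which encodes OCT4, at 314.3, and Klf2, a Krüppel-like factor gene, at 312.3. Prdm14, at 307.1, came close to these. Of 9 genes of the LIF pathway, 9 had an optimal summit and 8 a conservative one, against the same 67.2% and 51.4%, with a median of 3. The highest were the co-receptor gene Il6st with 318.9, the receptor gene Lifr with 284.4 and the ligand gene Lif with 152.1. Stat3 is in both lists, so the lists are not independent.

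Relatives of the 4 genes by protein family had medians of 2 to 2.5 optimal summits, against 1 over all protein-coding genes. In the T-box family, 12 of 16 other genes had an optimal summit, a share near the 67.2% of all genes, and 11 a conservative one, against 51.4%, with a median of 2. Tbx21 reached a signal of 252.5 and Tbx18 one of 214.1, both above the 136.3 of Tbx3, and Tbx2 and Tbx4 shared a summit with a signal of 105.2. Tbx6, Tbx10, Tbx15 and Tbx22 had none. No other T-box gene had as many optimal summits as Tbx3, the highest count being 7. By conservative summits, Eomes and Tbx21 had 4 each, against 3 at Tbx3. In the PRDM family, 12 of 14 had an optimal summit, against 67.2% of all genes, and 10 a conservative one, against 51.4%, with a median of 2.5. Prdm8 reached 374.8, above the 307.1 of Prdm14, and Prdm13 had 203.9, whereas Prdm4 and Prdm11 had none.

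In the TFCP2 and grainyhead-like family, 4 of 5 genes had an optimal summit, against 67.2% of all genes, and the same number a conservative one, against 51.4%, with a median of 2. Tfcp2 reached 152.0, Grhl2 113.1 and Grhl3 52.2, all below the 256.5 of Tfcp2l1, and Grhl1 had none. Among Gbx1 and other homeobox genes listed beside Gbx2, which are not all close relatives of it, 6 of 6 had an optimal and a conservative summit. The shares of all genes were 67.2% and 51.4%, and the median of the 6 was 2 optimal summits. With 5 and 6 genes, 1 gene moves such a share far. Otx2, a regulator of the exit from the naive state and of forebrain development, reached 334.0 with 9 summits, En2 142.5 and Gbx1 117.5, all 3 above the 98.6 of Gbx2. The windows reach 100 kb, so a summit counted for a relative may lie nearer to another gene.

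**Figure D5:**
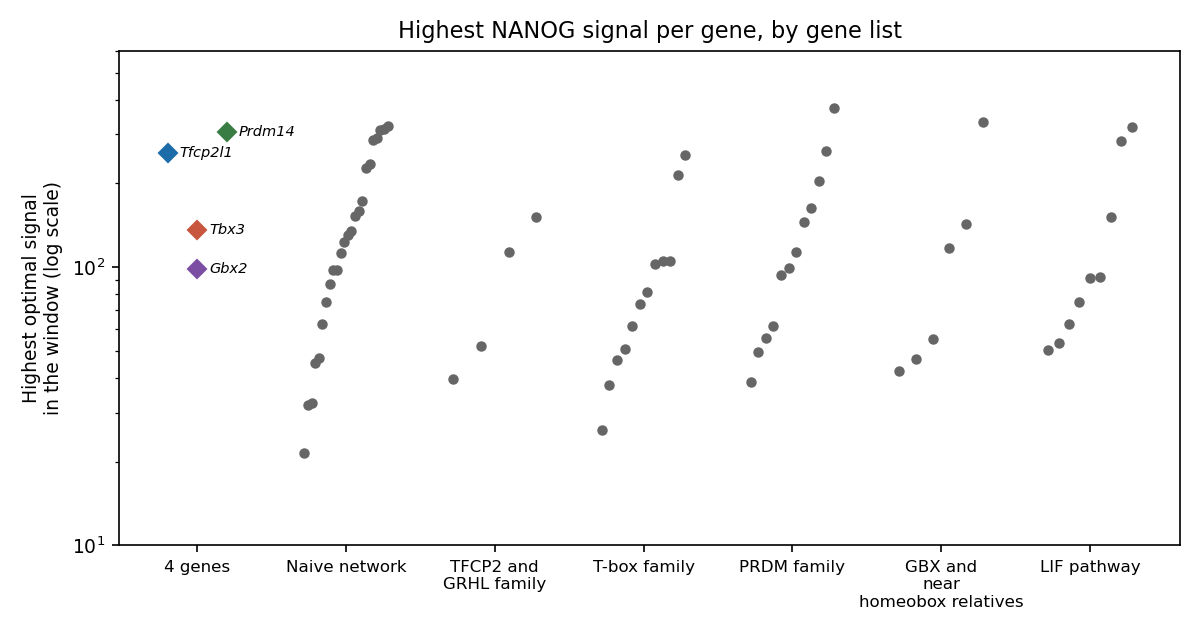
Highest signal of an optimal summit in the window (log scale) for the 4 genes (diamonds, named) and for the other genes of each list with a summit (points, ordered by signal). Prdm14 lies near the top of the naive network list, and Gbx2, at 98.6, lies below 3 of the homeobox genes listed beside it.

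Likeness was measured as the Euclidean distance over the log10 of a gene's best rank in 3 lists, the optimal set and both replicates. For Prdm14 the nearest genes were A930007A09Rik, Bfar and Ntan1, which share 1 best summit with ranks of 175, 204 and 162, at a distance of 0.0286. For Tfcp2l1 they were Col3a1 at 0.0874 and Csrp1 and Nav1, which share theirs, at 0.127. For Tbx3 they were Aldh4a1 and Tas1r2, which share theirs, at 0.0151 and Rspo3 at 0.0211. For Gbx2 they were Gm52433 at 0.00673 and Adcy3 and Dnajc27, which share theirs, at 0.0227.

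Motifs were counted in the 201 bases around the midpoints of the 16 series-level mm9 peaks, as exact matches on either strand, beside the share of all 13341 series-level peaks. In 6 of the 13 mm9 peaks with a matching optimal summit, the nearest such summit lay more than 100 bp from the midpoint, outside the bases searched. This was measured from the TSS, or for Gbx2 from the 3′ end, and it depends on the annotated ends. By way of the 3′ end, Tbx3 summits lay 84.1 and 13.1 kb upstream and 9.47 kb downstream of the mm9 5′ end. The midpoints there lay at 84.2, 13.1 and 9.46 kb, so these summits may lie inside the bases searched. By the same measure another Tbx3 summit lay 24.4 kb downstream, against a midpoint at 24.5 kb, and may lie outside them. TAATGG, a homeodomain core, was found in 4 of 16 against 11.8% of all peaks, at the sites of Tfcp2l1 at 14.7 kb, Tbx3 at 9.46 kb and 13.1 kb upstream, and Gbx2 at 62.4 kb. The octamer (ATGCAAAT, ATGCTAAT or ATGCATAT) was found in 2 of 16, both at Prdm14, against 8.11%. The KLF motif (GGGTGTGG or GGGCGTGG) was found in 2 of 16, both at Tbx3, against 3.67%. Measured from the TSS, the nearest mm10 summit lay 188 bp from the midpoint of the peak 85.7 kb upstream. At the peak 13.1 kb upstream it lay 185 bp away, but it may lie inside the window when measured from the 3′ end. CATTGT, the SOX core, was found in 2 of 16 against 25.8%. A further match in the strongest Prdm14 peak ran across the edge of the window and was not counted.

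The STAT pattern (TTCCNNNAA, which also takes in TTCCNNGAA) was found in 2 of 16 against 14.8%. These were the site of Gbx2 at 62.4 kb, with matches 14 and 35 bp from the midpoint, and that of Tbx3 at 24.5 kb, with TTCCACAAA. At this Tbx3 site the summit may lie outside the bases searched when measured from the 3′ end. The ESRRB motif was found in 1 of 16, at Prdm14, against 7.65%, and the TEAD motif GGAATG in 2 of 16 against 15.4%. TAATTA, with 9.68% of all peaks, the T-box motif AGGTGTGA, with 1.33%, a pair of CCAG 6 bases apart for the TFCP2 family, with 2.37%, GGTCTCTAA for PRDM14, with 0.202%, and the E-box CACGTG, with 1.54%, were found in none of the 16. No match says only that these letters are not in the window, and with 16 peaks a single peak moves a share by several percentage points. The window of the strongest Tfcp2l1 peak held no match to any of these motifs, but the mm10 summit lay 394 bp from its midpoint, measured from the TSS. The whole mm9 region of that peak, searched after seeing the data, held octamer, SOX, STAT and TEAD matches. The G and C content of the windows had a median of 48.5% at the 4 genes and 45.3% over all peaks.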

How the data were processed

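NANOG ChIP-seq peak lists of 2 biological replicates were used as deposited. Per the file headers' output types, the authors gave on mm10 a relaxed list per replicate and for the pool, and an optimal and a conservative set made by IDR; how the series-level mm9 list was combined is not stated. By the field order of the peak formats, the deposited mm10 values are a signal, the −log10 of the q-value and a summit offset, and the deposited mm9 values are an enrichment ratio, a q-value (read as untransformed) and a p-value as its −log10. Aligner, peak caller, thresholds and read depth are not given in the sources used here, so depth is unknown and no interval is given. The control experiment named as possible was not used here.

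Python 3.11.15, NumPy 2.4.6, pandas 2.3.3 and matplotlib 3.10.9 were used. Gene positions on mm10 came from a RefSeq table (GRCm38.p6) with 21896 protein-coding genes, of which 21460 (98.0%) got a strand, 20208 from the mm9 annotation (GENCODE) and 1252 from a RefSeq promoter table. As TSS the 5′ end of each gene was taken. A summit was in the conservative set when its region shared at least 1 bp with it. It was supported by a replicate when a summit among the 15891 highest regions of that replicate lay within 100 bp. Support in the relaxed lists was counted in the same way with all their regions. Builds were never converted: an mm9 peak widened by 1 kb on each side matched when it held the summit's distance from the TSS. Motifs were searched in the mm9 genome. Coordinates are 1-based, and 14 optimal regions repeat another region with another summit.

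The 4 genes, the lists, the motifs and the alternatives were chosen with earlier results of these data known. The genes named are the 4, with every summit, the 3 genes of highest signal and up to 5 without a summit in each list, neighbours with the nearest TSS or a summit in their body, and the 3 nearest by rank; 1 gene that this rule takes is not reported here. The counting was tested on simulated data. Alternatives were the conservative set, other windows, nearest TSS, single replicates, repeated regions counted once, mm9 peaks, other support distances and other motif windows.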

Additional observations from a re-analysis of the deposited data

How the results depend on the processing

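Counts of summits are given below for Tfcp2l1, Tbx3, Prdm14 and Gbx2, which had 4, 9, 3 and 4 optimal summits. The conservative set gave 2, 3, 2 and 1. A window of 10 kb gave 3, 1, 1 and 2, one of 50 kb gave 3, 4, 2 and 2, and one of 200 kb gave 7, 10, 7 and 6. With the highest 15891 regions of a single replicate, the counts without replicate 1 were 2, 3, 6 and 4 and those without replicate 2 were 5, 9, 4 and 2. The count at Tbx3 thus ran from 3 without replicate 1 to 9 without replicate 2, and that at Prdm14 from 6 to 4. Nearest TSS alone left 2 at Gbx2 and changed no other count. Series-level mm9 peaks gave 3, 6, 5 and 2, and those with a q-value of at most 0.001 gave 2, 2, 1 and 1. Counting repeated regions once changed nothing.

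Support in both replicates stayed at 8 of 20 with 50 bp, 250 bp or 1 bp of overlap, and was 17 with all relaxed regions. Matches on mm9 numbered 14, and 15 with 2 kb of slack or, chosen after seeing the data, from the 3′ end. The mm9 list of replicate 2 alone gave 8 matches, that of replicate 1 alone 18, and the stricter q-value 6. All 24 other naive network genes had a summit, and 20 to 24 did under the alternatives. With 50 bp on each side, TAATGG was found at 1 of 16 mm9 peaks, against 6.85% of all peaks, and the octamer and SOX core at 0, against 4.64% and 16.1%. In the whole mm9 regions, searched after seeing the data, TAATGG was found at 5 of 16 against 34.9% of all regions, so its higher share in the 201 bases was not seen there. The octamer was found at 3 against 19.0%, SOX at 6 against 52.2%, STAT at 9 against 50.5%, TEAD at 8 against 47.2%, KLF at 3 against 12.3% and ESRRB at 2 against 15.7%. Of the motifs with no match in the 201 bases, TAATTA was found at 3 against 27.9%, the TFCP2 pair at 2 against 8.85%, the E-box at 2 against 9.86%, the T-box motif at 1 against 4.53% and the PRDM14 motif at 0 against 0.959%. The causes were not tested. No paired analysis was possible because there was 1 group. Unknown depth limits what a missing replicate 2 peak shows.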
